A study of Spinacia oleracea with 12 samples.

Results

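Roots of PI175311, a high-oxalate spinach accession, were set against roots of Bloomsdale, a low-oxalate heirloom variety, in 3 RNA-seq libraries of each genotype. These 6 root libraries are part of a set of 12, the others being leaves of the same genotypes. The deposited table gives 25495 genes as FPKM, fragments scaled to gene length and to the fragments mapped in the library. A gene entered the comparison when it reached at least 1 FPKM in 3 or more of the 6 root libraries, which kept 18197 genes, while 2361 genes were at 0 in all 6. All plants were 6 weeks old and grew in a chamber at 23 °C under the same light, with no treatment apart from genotype. The labels give a supply of 200 ppm nitrogen, whereas the methods of the study describe a nutrient solution without nitrogen. Per the sources the replicates came from independent plants. Each oxalate level is represented by 1 genotype, so oxalate content and every other difference between PI175311 and Bloomsdale cannot be told apart here.

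Spinach builds up oxalate, much of it soluble and some of it as calcium oxalate crystals. Plants can form oxalate from glyoxylate, from oxaloacetate or from the breakdown of ascorbate, and can remove it by decarboxylation, by oxidation or through oxalyl-CoA. Roots take up water and minerals and hold little of the photosynthetic apparatus, whose transcripts dominate leaf RNA. The abundance of a transcript sets how precisely sequencing measures it, so the root contrast is described here in 5 classes of mean FPKM: under 2, 2 to 5, 5 to 20, 20 to 100, and 100 or more. The mean was taken over all 6 root libraries after median-of-ratios scaling, in which each library is divided by its median ratio to the geometric mean of the 6.

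The PI175311 libraries held 18436133 to 24781274 fragments and the Bloomsdale libraries 21852882 to 24585894, as recovered from the deposited values. Scaling factors were 0.925, 0.957 and 0.889 in PI175311 roots and 1.08, 1.12 and 1.07 in Bloomsdale roots, so every PI175311 library was scaled up and every Bloomsdale library down. Across the tested genes, the 3 PI175311 libraries correlated with each other at r = 0.894 to 0.927 on the log2(FPKM + 1) scale, the 3 Bloomsdale libraries at 0.949 to 0.979, and libraries of different genotype at 0.815 to 0.881. The gene IDs could not be paired with gene names, so the tissue label was checked with the 100 genes of highest mean FPKM in the leaf libraries instead of with known markers. These 100 genes took 18.5%, 10.9% and 25.7% of the summed FPKM in PI175311 roots, against 5.38%, 3.17% and 6.64% in Bloomsdale roots, while in the leaf libraries they took 44.2% to 60.9%. The share was thus higher in every PI175311 root library than in any Bloomsdale root library, and in each genotype it was highest in replicate 3 and lowest in replicate 2. In bulk tissue, more cells of a type and more RNA per cell cannot be told apart. The part of this difference in the results was not tested. The number and direction of the calls and the class shares are given with and without these genes. Other results, such as the replicate SD and the correlations within pairs, are given only with them.

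In the fit with the replicate number as a pairing factor, 1823 of the 18197 tested genes differed between the roots at an adjusted p below 0.05 (limma, Benjamini-Hochberg), which is 10% of those tested. Of these, 746 were higher in PI175311 roots (4.1% of those tested) and 1077 were lower (5.92%). The genotypes did not overlap, meaning that all PI175311 values lay on one side of all Bloomsdale values, for 6624 genes (36.4%), and the 3 pairs gave the same sign for 10214 genes (56.1%). The median log2 difference, PI175311 minus Bloomsdale, was 0.01 after scaling and -0.23 on the deposited FPKM. Without the added scaling, 610 genes were higher and 2058 lower, so the balance between the directions rests on the scaling. Without the pairing factor, 1443 genes passed (7.93%), of which 679 were higher and 764 lower, and 1160 were called in both fits. The count also rests on each pair of libraries. Leaving out the third pair left 616 calls (263 higher, 353 lower), and leaving out the first or the second left 0 calls by limma, with 2980 and 4059 genes at an unadjusted p below 0.05. Such a fit keeps 1 residual degree of freedom, against 2 in the full one. Without the pairing factor, leaving out 1 library gave 661, 1310 and 1418 calls for PI175311 libraries 1, 2 and 3, and 147, 146 and 641 calls for Bloomsdale libraries 1, 2 and 3.

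**Figure D1:**
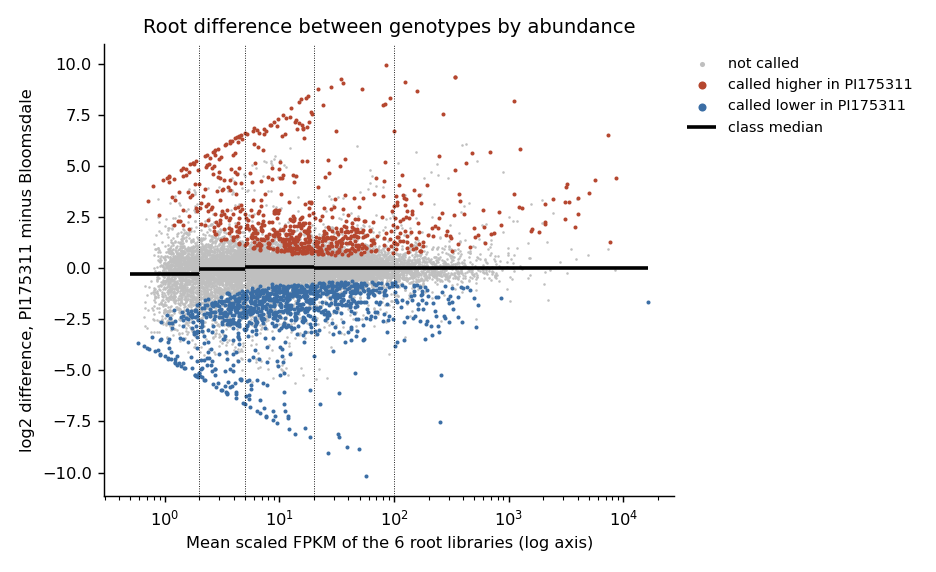
Log2 difference between PI175311 and Bloomsdale roots (vertical axis, PI175311 minus Bloomsdale) against mean scaled FPKM over the 6 root libraries (horizontal axis, log scale), one point per tested gene, with called genes coloured by direction. Of the 1823 called genes, 746 lie above zero and 1077 below it, the genes that did not pass spread most at low FPKM, and the class medians (black) lie between -0.30 and 0.04.

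The share of genes called was 7.67% below 2 FPKM (121 of 1577), 10.1% at 2 to 5 FPKM (322 of 3179), 10.2% at 5 to 20 FPKM (741 of 7280), 9.02% at 20 to 100 FPKM (450 of 4989) and 16.1% at 100 FPKM or more (189 of 1172). Against the 10% over all tested genes, the most abundant class stood above and the least abundant class below in this fit, but the place of the least abundant class turned with the settings. Without the pairing factor 8.70% of the genes at 100 FPKM or more and 8.88% of those below 2 FPKM were called, against 7.93% of all tested genes. Without limma's trend and robust options the shares were 11.9% and 15.0%, against 8.41% of all tested genes, and with classes by the mean of log2 values they were 13.1% and 14.9%. With 1 FPKM added they were 17.4% and 12.6%, against 12% of all tested genes. The direction of the calls also shifted with abundance. Genes higher in PI175311 made up 31.4% of the calls below 2 FPKM (38 higher, 83 lower), 32.9% at 2 to 5 FPKM (106 and 216), 39.0% at 5 to 20 FPKM (289 and 452), 44.4% at 20 to 100 FPKM (200 and 250) and 59.8% at 100 FPKM or more (113 and 76), against 40.9% over all calls. On the deposited FPKM these shares were 18.6%, 20.9%, 22.0%, 20.1% and 42.2%, and with quantile normalisation 40.7%, 37.8%, 38.0%, 44.5% and 50.3%. The top class held the largest share of higher calls under each of these scalings, but on the deposited FPKM lower calls outnumbered higher ones there too. In the low classes the direction with 1 library left out was partly set by the filter, which was applied again to the remaining libraries. Only the genotype with 3 libraries could then carry a gene past it alone, so nothing is read from this direction. In fits without the pairing factor that left out 1 PI175311 library, 0% to 1.15% of the calls below 2 FPKM were higher, and all 7 to 36 calls were higher when 1 Bloomsdale library was left out.

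**Figure D2:**
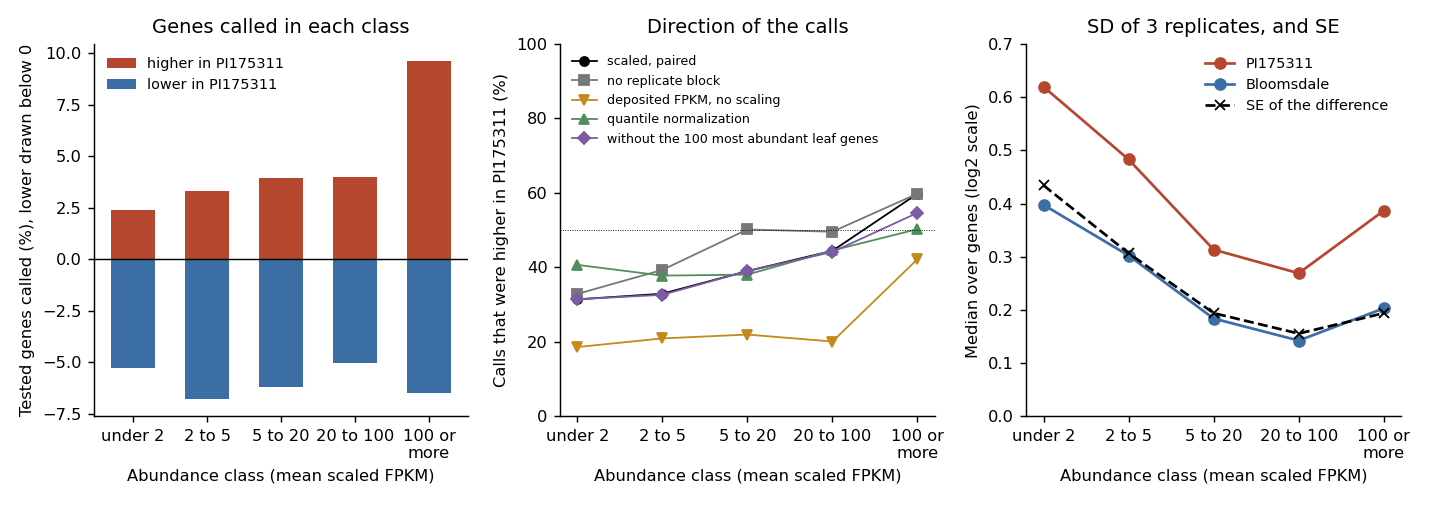
For the 5 classes of mean scaled FPKM, the percent of tested genes called higher or lower (left), the percent of the calls that were higher in PI175311 under 5 settings (middle), and the median SD of 3 replicates per genotype with the median SE of the difference, on the log2 scale (right). At 100 FPKM or more 16.1% of the genes were called and higher calls outnumbered lower ones, 113 to 76, while below 2 FPKM lower calls outnumbered higher ones, 83 to 38.

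Leaf-abundant genes were concentrated in the top class. Of the 100, 89 were tested in root, 27 were called higher in PI175311 and the others did not pass the test, and 23 of those 27 were among the 41 that were at 100 FPKM or more, where their median log2 difference was 2.61. Over all tested genes 4.1% were called higher, and over all genes at 100 FPKM or more 9.64%. When all 100 were left out, 172 genes at 100 FPKM or more were called and 54.7% of them were higher, against 189 and 59.8% with them. The whole count then was 1843, with 739 higher and 1104 lower. So the excess of higher calls in the top class was smaller without these 100 genes, under median-of-ratios scaling. Other genes with high leaf levels remained, such as Spo13990 at 430 FPKM in PI175311 leaves and 122 FPKM in Bloomsdale leaves on average. What part leaf-abundant genes have in the excess was not tested.

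The typical size of a difference fell with abundance and then turned up again. The median absolute log2 difference was 0.78 below 2 FPKM, 0.52 at 2 to 5 FPKM, 0.34 at 5 to 20 FPKM, 0.28 at 20 to 100 FPKM and 0.41 at 100 FPKM or more. The median signed difference was near 0 in the 4 upper classes, at -0.05, 0.04, 0.02 and 0.02 in ascending order of abundance, and was -0.30 below 2 FPKM. In that lowest class the 3 pairs gave medians of -0.21, -0.39 and -0.24, but the size of this shift depended on the settings. It was -0.51 on the deposited FPKM, -0.11 under quantile normalisation, -0.16 with 1 FPKM added and -0.01 with no filter on low values. Without the first, the second or the third pair it was -0.15, -0.06 and -0.12. The filter was applied again in these fits and left 893, 911 and 850 genes in the class, against 1577. The gene set thus changed together with the pair left out. Without the pairing factor the shift was -0.48 to -0.34 when 1 PI175311 library was left out and -0.08 to -0.07 when 1 Bloomsdale library was. With 1 library left out the filter was also applied again and favoured genes of the genotype with 3 libraries, so this contrast is partly set by it. In the same class, 702, 750 and 627 genes were under 1 FPKM in PI175311 roots, against 283, 308 and 309 in Bloomsdale roots. These were counted on the deposited FPKM, before the scaling that raised PI175311 values and lowered Bloomsdale values. Class membership follows the mean of both genotypes, and classing genes by the mean of their log2 values instead raised the share of higher calls in the lowest class to 41.1% of 333 calls.

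Replicates of PI175311 differed more than those of Bloomsdale at every level of abundance. The median SD of log2 values in PI175311 roots was 0.620, 0.483, 0.313, 0.269 and 0.387 from the lowest to the highest class, against 0.398, 0.302, 0.184, 0.142 and 0.203 in Bloomsdale roots. The SD was larger in PI175311 for 73.1% of all tested genes, with 69.9% in the lowest class and 75% in the highest. The median standard error of the difference was 0.434 below 2 FPKM and 0.156 at 20 to 100 FPKM. What could be called followed this spread. The smallest absolute log2 difference that passed was 1.78 below 2 FPKM, 1.11 at 2 to 5 FPKM, 0.71 at 5 to 20 FPKM, 0.64 at 20 to 100 FPKM and 0.69 at 100 FPKM or more. Of the genes with an absolute log2 difference of at least 1, 18.9% were called in the lowest class (of 641), 33.0% at 2 to 5 FPKM (of 976), 54.0% at 5 to 20 FPKM (of 1191), 54.6% at 20 to 100 FPKM (of 612) and 58.7% in the highest class (of 283). The median number of fragments behind a gene in a library went with this, at 38.3, 101, 356, 1298 and 5285 from the lowest to the highest class. The share of genes whose genotypes did not overlap varied far less, between 35.8% and 38.4% across the classes.

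Some tested genes were at 0 throughout the roots of a genotype. At 0 in all 3 PI175311 root libraries, but not in Bloomsdale, were 53 genes, of which 26 were below 2 FPKM, 15 at 2 to 5, 10 at 5 to 20, 2 at 20 to 100 and 0 at 100 FPKM or more. In all 3 Bloomsdale root libraries 46 genes were at 0, with 12, 19, 12, 3 and 0 in the same classes. Such a gene could enter the comparison only by reaching 1 FPKM in every library of the other genotype, so the filter alone fixed its difference. All 53 and all 46 were called, and they stay in the counts by class. Below 2 FPKM they make up 26 of the 83 lower and 12 of the 38 higher calls, and at 2 to 5 FPKM 15 of 216 and 19 of 106. Nothing is read from these calls on their own. No fold is given for these genes, because the fitted difference depends on the 0.1 FPKM added before taking logarithms.

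The most abundant class took a larger share of the summed FPKM in the PI175311 root libraries. Genes at 100 FPKM or more held 64.0%, 57.7% and 67.8% of the summed FPKM in PI175311 roots, against 55.6%, 53.6% and 54.4% in Bloomsdale roots. The means were 63.2% ± 5.09 in PI175311 and 54.5% ± 1.0 in Bloomsdale (SD, n = 3 each), a difference of 8.66 percentage points. The genotypes did not overlap in this class or in the other 4, all of which held less in PI175311. The 5 shares make up nearly the whole of each library, so a larger share in the top class leaves less for the others. They are not 5 separate results. At 20 to 100 FPKM the shares were 24.5%, 29.2% and 21.7% in PI175311 roots, against 30.3%, 31.4% and 30.8% in Bloomsdale roots, and at 5 to 20 FPKM they were 9.61%, 11.0% and 8.79%, against 11.9%, 12.6% and 12.3%. Below 2 FPKM they were 0.242%, 0.258% and 0.241% in PI175311 roots, against 0.354%, 0.392% and 0.387% in Bloomsdale roots. For each of the 5 classes the exact 2-sided permutation test gave p = 0.10, also after Benjamini-Hochberg adjustment over the 5, which is the smallest value that 3 libraries against 3 allow, so none can pass 0.05. Without the 100 leaf-abundant genes the difference at 100 FPKM or more was 3.07 percentage points.

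**Figure D3:**
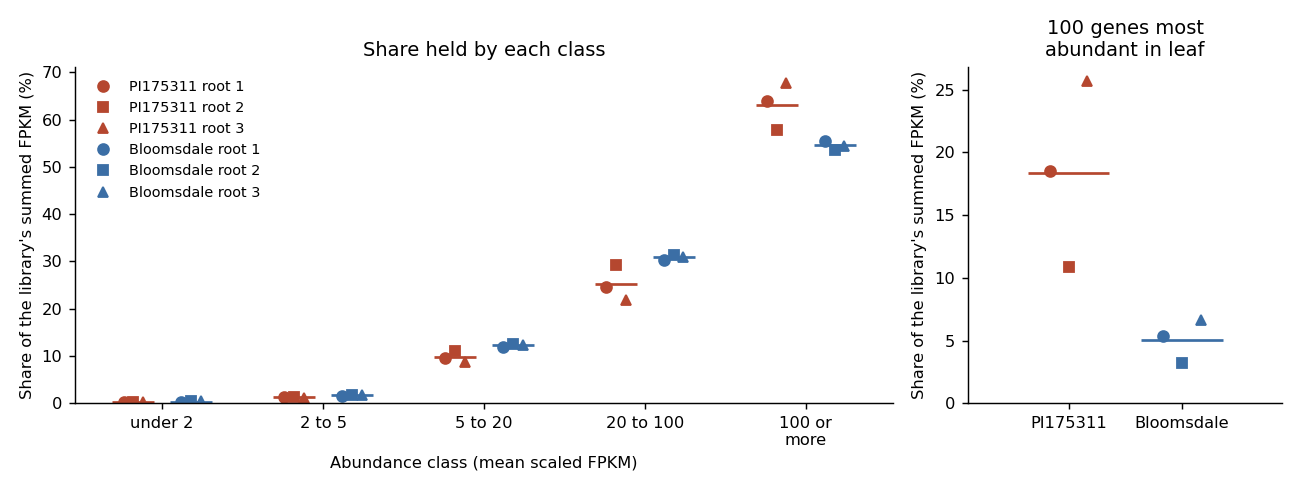
Percent of the summed FPKM held by each abundance class (left) and by the 100 genes most abundant in leaf (right), one point per root library, PI175311 left of Bloomsdale. At 100 FPKM or more the PI175311 libraries lie at 57.7% to 67.8% and the Bloomsdale libraries at 53.6% to 55.6%, and the leaf-abundant genes hold 10.9% to 25.7% and 3.17% to 6.64%.

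The genes with the largest change in share were looked up after their values were seen. Spo21973 held 1.92% of the summed FPKM in PI175311 roots on average and 0.148% in Bloomsdale roots, and Spo21968 held 1.64% and 0.052%. Spo16408, Spo23862 and Spo11620 followed, with 1.26%, 1.06% and 0.850% in PI175311 roots and 0.118%, 0.154% and 0.119% in Bloomsdale roots. All 5 belong to the 100 leaf-abundant genes, and each was called higher. The largest loss was that of Spo05786, with 0.951% in PI175311 roots on average and 3.9% in Bloomsdale roots, a gene that averaged 0.50 FPKM in PI175311 leaves and 0.027 FPKM in Bloomsdale leaves.

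The 3 most abundant genes called higher all belong to the 100 leaf-abundant genes, and the 3 most abundant called lower do not. Spo20857, called lower, still averaged 239 FPKM in PI175311 leaves and 668 FPKM in Bloomsdale leaves. Spo21973 had 21456, 4487 and 23394 scaled FPKM in PI175311 roots, against 1494, 127 and 1301 in Bloomsdale roots (log2 difference 4.38, SE 0.33, limma adjusted p = 0.0122). Spo21968 had 14629, 2699 and 25430.1 FPKM in PI175311 roots and 193, 8.56 and 824 FPKM in Bloomsdale roots (6.49, SE 0.68, limma adjusted p = 0.0195). In both genotypes these 2 genes were lowest in replicate 2, the library with the lowest share of leaf-abundant genes. Both are part of that share, so the match is not independent of it. Spo02904, also leaf-abundant, varied little between replicates, with 11673, 11324 and 9782 FPKM in PI175311 roots and 4733, 4618 and 3986 FPKM in Bloomsdale roots (1.30, SE 0.23, limma adjusted p = 0.0419), but its adjusted p was 0.686 under quantile normalisation. On the lower side, Spo05786 had 10248, 8536 and 4644 FPKM in PI175311 roots, against 30032, 32386 and 13183 FPKM in Bloomsdale roots (-1.66, SE 0.27, limma adjusted p = 0.0367). Spo20857 had 314, 309 and 833 FPKM in PI175311 roots and 927, 1019 and 1720.4 FPKM in Bloomsdale roots (-1.44, limma adjusted p = 0.0314), with replicate 3 highest in both genotypes and the groups close to each other but not overlapping. Spo07460 had 294, 271 and 161 FPKM in PI175311 roots and 928, 904 and 682 FPKM in Bloomsdale roots (-1.83, limma adjusted p = 0.0163), and its groups did not overlap. Without the pairing factor Spo21973, Spo21968, Spo02904, Spo05786 and Spo20857 did not pass the threshold.

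The largest differences within each class were taken among called genes at 0.5 FPKM or more in all 6 root libraries and with groups that did not overlap. This floor limits how large a difference a gene of low mean can show. Below 2 FPKM no gene higher in PI175311 met this rule. Spo08313 had 0.59, 0.628 and 0.652 FPKM in PI175311 roots, against 3.21, 3.52 and 2.5 FPKM in Bloomsdale roots (-2.12, SE 0.33, limma adjusted p = 0.0357), which rested on 41 to 50 fragments in each PI175311 library and 242 to 317 in each Bloomsdale library. Spo16019 had 0.883, 0.844 and 0.642 FPKM in PI175311 roots and 3.26, 3.67 and 2.11 FPKM in Bloomsdale roots (-1.78, limma adjusted p = 0.0422), on 12 to 19 and 52 to 84 fragments. Both were lower in every PI175311 library than in any Bloomsdale library, as the rule required.

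At 2 to 5 FPKM the differences were close to 3 on the log2 scale in either direction. Spo03808 had 4.76, 4.49 and 4.81 FPKM in PI175311 roots and 0.532, 0.483 and 0.469 FPKM in Bloomsdale roots (3.01, SE 0.30, limma adjusted p = 0.0176). Spo14618 had 8.53, 6.71 and 8.37 FPKM in PI175311 roots and 0.796, 1.18 and 0.733 FPKM in Bloomsdale roots (3.01, limma adjusted p = 0.0188). Both were higher in PI175311, and the replicates of Spo03808 lay especially close together. On the lower side, Spo01179 had 0.841, 1.02 and 1.22 FPKM in PI175311 roots and 10.1, 9.61 and 6.87 FPKM in Bloomsdale roots (-2.99, limma adjusted p = 0.0181), and Spo20483 had 0.845, 1.51 and 0.821 FPKM in PI175311 roots and 7.34, 8.83 and 7.13 FPKM in Bloomsdale roots (-2.81, limma adjusted p = 0.0148).

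At 5 to 20 FPKM Spo13617 had 35.6, 39.4 and 26.8 FPKM in PI175311 roots, against 0.54, 0.91 and 0.946 FPKM in Bloomsdale roots (5.26, SE 0.28, limma adjusted p = 0.00839). Spo12031 had 7.9, 22.2 and 47.0 FPKM in PI175311 roots and 0.75, 0.531 and 1.09 FPKM in Bloomsdale roots (4.56, limma adjusted p = 0.0202), and its leaf levels were far above its root levels in both genotypes, at 409 FPKM in PI175311 leaves and 132 FPKM in Bloomsdale leaves on average. Higher levels in PI175311 were thus steady between replicates for Spo13617 and spread widely for Spo12031. Spo06113 had 0.614, 0.658 and 0.738 FPKM in PI175311 roots, against 24.4, 17.0 and 13.3 FPKM in Bloomsdale roots (-4.53, limma adjusted p = 0.0102), and was listed at 0 in all leaf libraries. Spo00686 had 0.758, 1.31 and 0.748 FPKM in PI175311 roots and 16.2, 26.0 and 18.7 FPKM in Bloomsdale roots (-4.31, limma adjusted p = 0.0069).

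At 20 to 100 FPKM Spo18452 had 186, 135 and 267 FPKM in PI175311 roots, against 1.07, 1.17 and 4.01 FPKM in Bloomsdale roots (6.69, SE 0.28, limma adjusted p = 0.0069). Spo09726 had 66.3, 57.7 and 92.0 FPKM in PI175311 roots and 1.23, 0.579 and 5.98 FPKM in Bloomsdale roots (5.33, limma adjusted p = 0.0172). In both the third Bloomsdale library was the highest of its group, still well below every PI175311 library. Spo10092 had 0.80, 1.13 and 0.67 FPKM in PI175311 roots, against 76.8, 60.3 and 60.0 FPKM in Bloomsdale roots (-6.11, limma adjusted p = 0.00675), and Spo26039 had 2.19, 4.2 and 1.46 FPKM in PI175311 roots and 103, 104 and 59.3 FPKM in Bloomsdale roots (-5.11, limma adjusted p = 0.0069). Both were lower in every PI175311 library than in any Bloomsdale library, which the rule of choice required.

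At 100 FPKM or more the largest differences came with a wide spread between replicates. Spo13990 had 1942, 488 and 4179 FPKM in PI175311 roots, against 10.4, 0.702 and 19.0 FPKM in Bloomsdale roots (8.18, SE 0.38, limma adjusted p = 0.0069), with replicate 2 lowest in both genotypes, as for Spo21968. Spo09968 had 4.26, 3.07 and 1.03 FPKM in PI175311 roots and 756, 507 and 245 FPKM in Bloomsdale roots (-7.51, SE 0.15, limma adjusted p = 0.00463), and Spo11622 had 6.9, 15.0 and 19.8 FPKM in PI175311 roots and 516, 677 and 306 FPKM in Bloomsdale roots (-5.21, limma adjusted p = 0.0148). Both of these averaged below 1 FPKM in the leaves of either genotype.

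**Figure D4:**
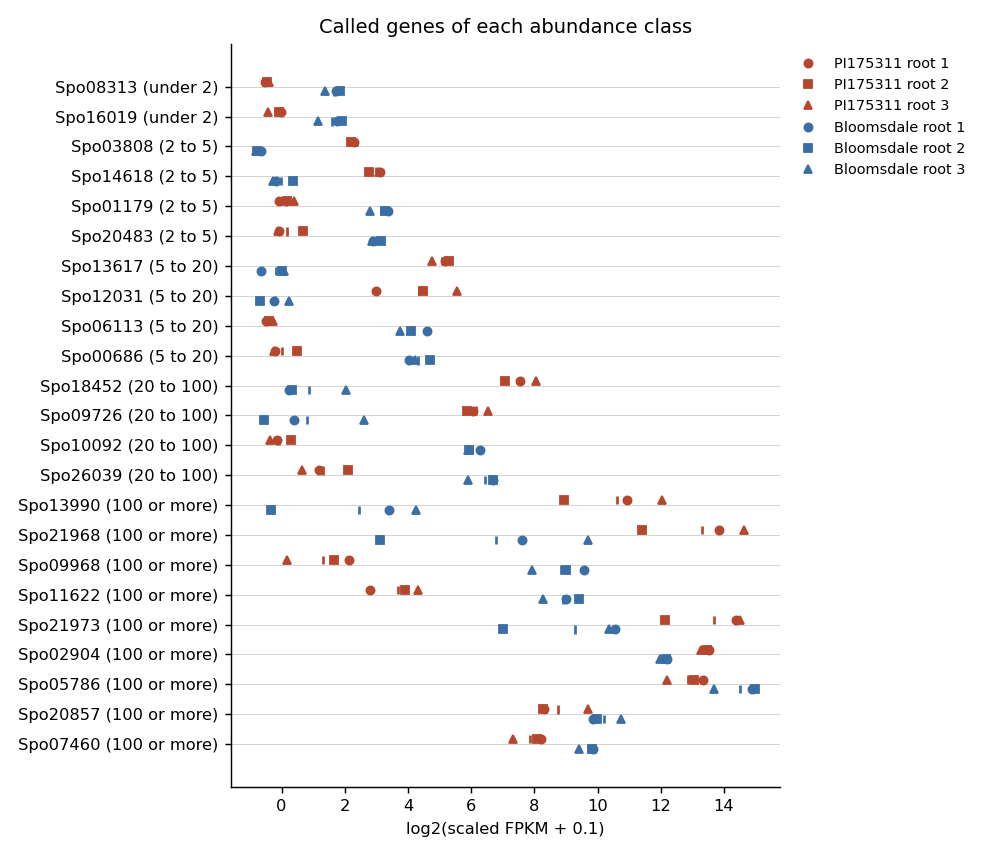
Scaled FPKM plus 0.1 on the log2 scale (horizontal axis) of the called genes with the largest differences in each abundance class and of the most abundant called genes, one symbol per root library and a tick for the mean, the PI175311 row drawn above the Bloomsdale row. The 3 libraries of PI175311 do not overlap with those of Bloomsdale for any gene drawn, from Spo08313 at 0.590 to 3.52 FPKM up to Spo05786 at 4644 to 32386 FPKM. For the genes with the largest differences this was a condition of being drawn.

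Genes of oxalate metabolism were followed by their roles in a list of 15 genes that the study names. Of the 15, 11 passed the filter, 2 were called higher in PI175311 roots and 1 lower, against 10% of all tested genes called, and 6 had groups that did not overlap, against 36.4% of all tested genes. The median log2 difference over the 11 was 0.21, beside 0.01 over all tested genes. The study names these genes in its account of the same samples, some of them after earlier work, so the list is not independent evidence of a direction.

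Among genes of glyoxylate supply, none passed the test. Spo13898, isocitrate lyase, which splits isocitrate into succinate and glyoxylate, had 5.21, 6.61 and 7.4 FPKM in PI175311 roots, against 5.47, 13.5 and 17.5 FPKM in Bloomsdale roots (-0.77, limma adjusted p = 0.158). Spo21149 encodes MFP2, a multifunctional protein of peroxisomal fatty acid beta-oxidation, and had 49.0, 75.9 and 48.6 FPKM in PI175311 roots and 36.3, 42.6 and 34.0 FPKM in Bloomsdale roots (0.59, limma adjusted p = 0.0747), without overlap. For Spo01759, an acyl-CoA oxidase, which takes the first step of beta-oxidation, the levels were 56.7, 64.6 and 46.0 FPKM in PI175311 roots and 65.7, 64.5 and 41.5 FPKM in Bloomsdale roots (-0.02, SE 0.14, limma adjusted p = 0.935). All of them were thus expressed in the roots of both genotypes, and none of their differences passed the test.

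Glyoxylate can be drawn off to glycine by transamination or to glycolate by reduction. The tested gene of this group, the aminotransferase Spo12360, had 31.9, 24.9 and 49.6 FPKM in PI175311 roots and 24.2, 31.0 and 34.0 FPKM in Bloomsdale roots (0.21, limma adjusted p = 0.553). The other 3, annotated as similar to glyoxylate/succinic semialdehyde reductases, did not pass the filter and so were not tested. How fragments shared by such related genes were counted is not given in the sources used here, so their split between the 3 is uncertain. Spo04579 had 14.7, 27.3 and 0 FPKM in PI175311 roots and was listed at 0 in each Bloomsdale root library, with 75, 107 and 0 fragments in the PI175311 libraries. Spo00830 had 2.43, 8.09 and 0 FPKM in PI175311 roots and 0 in each Bloomsdale root library, on 23, 59 and 0 fragments. Spo26769 had 1.45, 4.11 and 0.12 FPKM in PI175311 roots and 0, 0 and 0.0454 FPKM in Bloomsdale roots. All 3 were detected in the first and second PI175311 libraries and were at or near 0 in the third, so PI175311 roots differed among themselves in these genes.

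The putative oxaloacetate acetylhydrolase Spo21624, an enzyme type that cleaves oxaloacetate to oxalate and acetate, had 7.0, 8.62 and 11.6 FPKM in PI175311 roots, against 0.876, 0.98 and 5.73 FPKM in Bloomsdale roots (2.29, SE 0.48, limma adjusted p = 0.0585). The groups did not overlap, and the third Bloomsdale library was near the PI175311 range while the other two were not. The call turned on the settings, with limma adjusted p = 0.0425 when 1 FPKM was added, 0.0494 after quantile normalisation and 0.0401 without the third pair. The third pair holds the high Bloomsdale value. Without the pairing factor the limma adjusted p was 0.105.

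On the ascorbate side the largest difference of the list was found. Spo08328, an ascorbate peroxidase, which uses ascorbate to reduce hydrogen peroxide, had 969.6, 1028 and 2279 FPKM in PI175311 roots, against 220.3, 89.5 and 392 FPKM in Bloomsdale roots (2.73, SE 0.32, limma adjusted p = 0.0223, and 0.0515 without the pairing factor). Every PI175311 library lay above every Bloomsdale library. Spo08328 is 1 of the 100 leaf-abundant genes, with 2861 FPKM in PI175311 leaves and 264 FPKM in Bloomsdale leaves on average, and in both genotypes its root level was highest in replicate 3, the library with the highest share of leaf-abundant genes. Its order followed that share in Bloomsdale roots. In PI175311 roots replicate 1, with a share of 18.5%, lay below replicate 2, with 10.9%. The ascorbate oxidases Spo12052 and Spo12053, which oxidise ascorbate in the cell wall space, had 15.1, 1.45 and 0.782 and 26.6, 2.3 and 0.959 FPKM in PI175311 roots, against 4.1, 2.71 and 1.69 and 6.44, 3.79 and 2.45 FPKM in Bloomsdale roots. Both were highest in replicate 1 of each genotype, most of all in PI175311, and the differences were -0.01 and 0.02 with SE 0.67 and 0.72, signs that turned with the settings.

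Of the genes for oxalate breakdown, the call for AAE3 was in the higher direction. Spo04424, the oxalyl-CoA synthetase AAE3, which joins oxalate to coenzyme A as the first step of an oxalate breakdown route, had 137, 126 and 89.3 FPKM in PI175311 roots, against 66.5, 59.1 and 57.6 FPKM in Bloomsdale roots (0.92, SE 0.16, limma adjusted p = 0.0401). On the deposited FPKM without scaling its difference was 0.69 with adjusted p = 0.0603, and it was 0.0601 without limma's trend and robust options. The oxalate decarboxylase-like gene Spo19759 was lower, with 23.3, 22.9 and 16.6 FPKM in PI175311 roots and 46.7, 44.2 and 25.9 FPKM in Bloomsdale roots (-0.86, SE 0.14, limma adjusted p = 0.0368, and 0.108 without the pairing factor). Its level was lowest in replicate 3 of both genotypes. Spo25084, of the same kind, had 161, 136 and 171 FPKM in PI175311 roots and 123, 101 and 133 FPKM in Bloomsdale roots (0.40, limma adjusted p = 0.129), and Spo06441 did not pass the filter, with 0.837, 0.262 and 0.199 FPKM in PI175311 roots and 0.492, 0.596 and 0.731 FPKM in Bloomsdale roots.

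**Figure D5:**
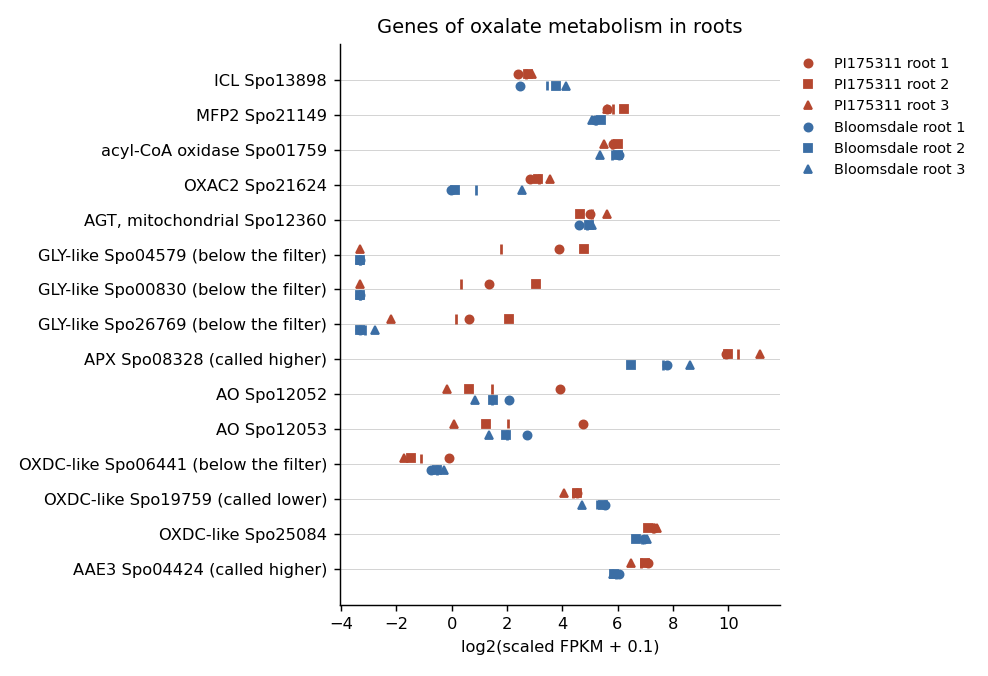
Scaled FPKM plus 0.1 on the log2 scale (horizontal axis) of the 15 oxalate genes, one symbol per root library and a tick for the mean, the PI175311 row drawn above the Bloomsdale row. Spo08328 and Spo04424 were called higher in PI175311 roots and Spo19759 lower, while Spo12052 and Spo12053 spread by more between the PI175311 replicates than between genotypes.

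Leaves of the same genotypes, classed and scaled on their own 6 libraries and fitted without the pairing factor, gave 1804 calls among 16764 tested genes (10.8%). The share called in leaf was 13.5% below 2 FPKM, 11.7% at 2 to 5 FPKM, 10.3% at 5 to 20 FPKM, 10.1% at 20 to 100 FPKM and 8.14% at 100 FPKM or more, beside 8.88%, 8.24%, 8.02%, 7.12% and 8.70% in root under the same unpaired fit. Higher calls made up 50.6%, 45.7%, 55.7%, 56.6% and 52.8% of the leaf calls. The classes hold different genes in the 2 tissues, and the difference between tissues in these shares was not tested. For single genes it was, in a fit with the interaction of genotype and tissue, which called 201 of the 15641 genes tested in both (1.29%).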

How the data were processed

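Root and leaf RNA of 2 spinach genotypes was sequenced as paired-end libraries. The authors deposited FPKM per gene, and the sources name more than one set of tools for the steps before it. The methods of the study name TopHat 2.0.12 on a Bowtie 2.2.3 index and HTSeq 0.6.1. Trimming with fastp, alignment with HISAT2 2.1.0 and featureCounts stand in the notes the submitters gave on their processing. The genome build is not given in the sources used here, and none of the 25495 gene IDs was found in the 39719 genes of the reference table, so no gene names or sequences are given beyond the functions the study names.

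Whole fragments were recovered from the FPKM steps and served for depths and for 1 alternative test. FPKM were scaled by median of ratios over genes above 0 in all 6 root libraries, and log2(scaled FPKM + 0.1) was fitted with limma 3.58.1 in R 4.3.3 (mean-variance trend, robust), with genotype and replicate number as terms and Benjamini-Hochberg adjustment over all tested genes. A call means adjusted p below 0.05. The 0.1 FPKM added understates the differences of low genes. A count test was not used as the main test, since the deposited values are FPKM. The code was tested on simulated data.

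The sources do not say that a replicate number marks a shared day or place. Deviations of same-numbered root libraries from their genotype means correlated across genes at 0.247, 0.217 and 0.272 in the 3 pairs, each over 0.1, against -0.187 to -0.047 between other numbers, and the number was taken to pair the libraries. The 3 deviations of a genotype sum to 0 for each gene, so positive values in the pairs push the other values below 0. The negative range is thus no separate evidence for the pairing. In the paired fit, p-values measure the spread of the differences within the 3 pairs of these libraries. In fits without the pairing factor they measure the spread between libraries of the same genotype.

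Named are the 15 oxalate genes whose IDs the study prints, in each class the 2 higher and 2 lower called genes with the largest difference among those with groups that did not overlap and at least 0.5 FPKM in all 6 libraries, and the 3 most abundant called genes in each direction. The contrast, classes and lists were chosen with earlier results of these data known. Alternatives covered scaling, the replicate term, the value added, the filter, limma's options, class bounds and libraries left out. Those with recovered fragments (limma-voom), with classes by mean log2 value, with single libraries left out and without the 100 most leaf-abundant genes were added after the data were seen.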

Additional observations from a re-analysis of the deposited data

Results flagged for a closer look

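Of the named genes, 24 were tested in root and leaf in one fit of all 12 libraries without the replicate term, and for 4 of them the difference between PI175311 and Bloomsdale was not the same in the 2 tissues (limma, interaction term, Benjamini-Hochberg over 15641 genes, 1.29% of which passed). For Spo18452 the log2 difference was 6.64 in root and 0.42 in leaf, a gap of 6.22 (adjusted p = 0.00767 by limma). Spo03808 had 2.93 in root and 0.49 in leaf, a gap of 2.44 (adjusted p = 0.0182 by limma). On the lower side, Spo26039 had -5.13 in root and -0.27 in leaf, a gap of -4.86 (adjusted p = 0.00767 by limma), and Spo20483 had -2.81 in root and 0.14 in leaf, a gap of -2.96 (adjusted p = 0.0233 by limma). All 4 had been named for the size of their root difference, so a gap in the direction of root was favoured by the choice. Of the 15 oxalate genes, 10 had this test and none of those passed it, the lowest adjusted p being that of Spo12360 with 0.18 in root and 2.55 in leaf (adjusted p = 0.0697 by limma).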

How the results depend on the processing

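With 3 libraries per genotype, the counts and their directions moved with the processing, and the causes were not tested. Against 746 higher and 1077 lower calls, the deposited FPKM gave 2058 lower (22.9% of the calls higher), the filter at a mean of 5 FPKM 692 lower with 13463 genes tested, and limma-voom on recovered fragments 827 higher and 1190 lower. With 1443 calls against 1823, the fit without the replicate block lost the call for 7 named genes, Spo08328 and Spo19759 among them. The 34 named genes tested also include genes not called in either fit. By class, deposited FPKM gave 199 calls below 2 FPKM and 722 at 20 to 100 FPKM, with 18.6%, 20.9%, 22.0%, 20.1% and 42.2% higher in ascending classes. No replicate block gave 50.2% higher at 5 to 20 FPKM and 102 calls at 100 FPKM or more. The class below 2 FPKM had 121 calls, but 199 with 1 FPKM added, 40 with 0.01 FPKM added, 205 with no filter, 236 without limma's trend and robust options (246 calls then at 20 to 100 FPKM) and 333 with classes by mean log2 value. In 5 classes of equal gene number the lowest, the middle and the highest held 322, 375 and 434 calls. Without the 100 leaf-abundant genes, the class shares of summed FPKM differed by -0.0944, -0.246, -1.01, -1.92 and 3.07 percentage points in ascending order.

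With replicates left out, singly without the block or as pairs with it, 0 to 1418 genes were called, 0 to 541 higher and 0 to 928 lower, with 27.1% to 78.8% of calls higher. In ascending classes the calls were 0 to 109, 0 to 258, 0 to 578, 0 to 392 and 0 to 116, and the percent higher 0 to 100, 7.30 to 93.3, 31.9 to 82.5, 42.4 to 65.6 and 50 to 68.1. The filter was applied again to the remaining libraries, which partly sets the direction when libraries are left out singly. Class share differences were -0.140 to -0.123, -0.491 to -0.370, -2.94 to -1.97, -7.45 to -4.05 and 6.29 to 10.9 percentage points, so none changed direction, though the shares of a library are tied to each other. With a pair left out, 30, 26 and 28 named genes were still tested without replicate 1, 2 and 3, genes not called in the main fit among them. Without replicate 1 or 2 limma called 0 genes, so every named call still tested was lost, 22 and 18 of them. Without replicate 3, 6 named genes lost the call. These fits keep 1 residual degree of freedom.

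Small differences of genes that were not called changed sign. Spo12360 was -0.0263 on deposited FPKM and -0.0585 to 0.46 with libraries left out. Spo12052 was 0.14 under quantile normalisation, 0.16 with 1 FPKM added and 0.78 by limma-voom. With libraries left out, Spo12052 ranged from -1.24 to 0.81. Spo12053 was -0.21 on deposited FPKM and -0.00847 with 0.01 FPKM added, and ranged from -1.33 to 0.99 with libraries left out. Spo01759 ranged from -0.24 to 0.11 with libraries left out.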
